A study of Mus musculus with 12 samples.

Results

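The hearts described here are those labelled as *Gata6*-deleted in cardiomyocytes, set against every control heart of the series. They were chosen by the genotype given in the labels, not by any measured value, which took 9 of 12 arrays. The *Gata6*-deleted group held 3 hearts, with the floxed *Gata6* allele and a cre transgene that acts in cardiomyocytes. The 6 controls were of 3 kinds, 2 hearts with the cre transgene and unfloxed *Gata4* and *Gata6*, 2 hearts with floxed *Gata4* and no cre, and 2 hearts with floxed *Gata6* and no cre. All mice were labelled as 8 weeks old, their labels name no surgery, and each heart gave RNA of the whole heart for 1 array. The labels name the MHCalpha promoter for the cre transgene while the study's methods name the βMHC promoter for the deletions, and they place the deletion in late cardiac development. The cre hearts shared the transgene with the deleted hearts and the *Gata6* floxed hearts shared the floxed allele, while the *Gata4* floxed hearts shared neither. The other 3 arrays were from *Gata4*-deleted hearts and enter only where named.

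GATA6 is a zinc finger transcription factor that binds DNA motifs with a GATA core. In heart muscle it is expressed together with GATA4, and both act with partners such as NKX2-5, TBX5, MEF2 and HAND2 on genes of the sarcomere, of natriuretic peptides and of ion handling. Both factors are known to be needed for heart development and for the growth response of the adult heart to pressure overload. Non-muscle cells of the heart express *Gata6* as well, and a cre that acts only in cardiomyocytes leaves their gene intact.

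The measurements were log2 signals of 35557 probesets, and a difference of 1 on this scale is a 2-fold change. The median signal of an array was 5.61 to 5.66, and any 2 of the 9 arrays correlated at 0.980 to 0.990 over the probesets. *Xist* read 3.41 to 3.88 and *Eif2s3y*, a Y-linked gene, 8.50 to 9.003 in every heart. The 12 cardiomyocyte markers averaged 12.47 to 12.52 over the list in the deleted hearts, against 12.49 to 12.55 in the controls, so the labelled tissue had its defining genes in every heart.

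The *Gata6* probeset read 8.98, 9.21 and 9.19 in the *Gata6*-deleted hearts, against a lowest of 8.69, a median of 8.82 and a highest of 9.09 in the controls. The first deleted heart lay within the control range and the other deleted hearts lay above it, and the log2 change was 0.27 (SE 0.10, limma adjusted p = 0.659). The *Gata4* probeset read 9.15, 9.05 and 9.15 in the deleted hearts, against 8.97, 9.14 and 9.26 as the lowest, median and highest control, with a log2 change of -0.00 (SE 0.08, limma adjusted p = 0.996). All deleted hearts lay within the control range for *Gata4*. The probesets cover whole transcripts, so a missing floxed exon could go unseen, and the array does not check the deletion.

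No probeset passed the test of the 3 deleted hearts against the 6 controls. In a limma fit of both groups, with the controls as 1 group, the smallest Benjamini-Hochberg adjusted p over all 35557 probesets was 0.171, so 0 probesets (0%) were called higher and 0 lower at a threshold of 0.05. At an unadjusted p under 0.05 there were 1163 probesets higher and 1237 lower, 2400 in all, where about 1778 would be expected by chance. The methods' t-test gave 1129 and 1227 at the same unadjusted threshold, and 1 higher and 0 lower after Benjamini-Hochberg adjustment. When probesets were averaged per gene and only the 19938 named genes were tested, 10 genes passed with limma (3 higher and 7 lower), and each of them is measured by a single probeset and belongs to the 20 genes described next.

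The groups can also be described by whether they overlap. All 3 deleted hearts lay outside the range of the 6 controls in 1238 probesets (3.48%), of which 571 (1.61%) were above it and 667 (1.88%) below it. If the group labels made no difference, a share of 0.0238 of probesets would be expected outside the range by chance. Some probesets hold identical values on every array, and with such copies counted once the 1238 became 1181 (3.37%). Per gene, with 1 probeset each, 781 of 19938 genes lay outside the range (3.92%), 344 above it (1.73%) and 437 below it (2.19%). Most of these differences were small, since 33 of the 344 differed by at least 0.5 on the log2 scale and 32 of the 437 by at least as much in the other direction. The scatter of change against p shows them all.

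**Figure D1:**
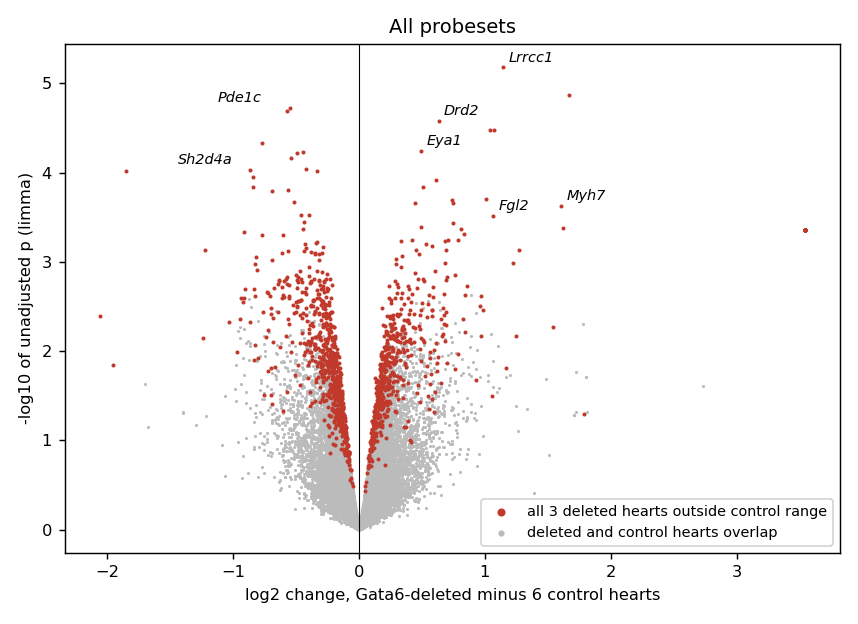
Each point is a probeset, with the log2 change (mean of 3 *Gata6*-deleted minus mean of 6 control hearts) on the x axis and the -log10 of the unadjusted limma p on the y axis. Red points are the 1238 probesets whose deleted hearts all lie outside the control range, and the point at 3.54 is 50 probesets with identical values.

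The 10 genes of smallest p in each direction are given as the members that stand farthest from the controls relative to their spread, with limma adjusted p between 0.171 and 0.178, none of which passes. In all 20 the deleted hearts lay outside the range of the controls, which fixes the sign of the difference against each kind of control.

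Of the 20 genes, 15 have at least 1 promoter window in RefSeq (GRCm38.p6, 250 bases before to 50 bases after the start of the gene). In 4 of these genes at least 1 window holds AGATAA or TGATAA on either strand, forms of the motif that GATA factors bind. Other forms of the motif were neither searched for nor marked. Over all 32851 such windows of 300 bases the share was 18.6%. That share counts windows, while the 4 of 15 are genes with up to 3 windows each, so they are not a like comparison. *Map2k6* has 2 windows with the motif, and the first of them is shown. The 4 sequences are shown because they are where a GATA motif and a difference between the groups meet, with the motif in capitals and all 5′ to 3′ on the gene's strand (TTATCT is AGATAA read on the other strand). The first lies at chr1:135818348-135818647 (+), the second at chr16:36784913-36785212 (-), the third at chr11:110398852-110399151 (+) and the fourth at chr14:29017958-29018257 (+).
Lad1: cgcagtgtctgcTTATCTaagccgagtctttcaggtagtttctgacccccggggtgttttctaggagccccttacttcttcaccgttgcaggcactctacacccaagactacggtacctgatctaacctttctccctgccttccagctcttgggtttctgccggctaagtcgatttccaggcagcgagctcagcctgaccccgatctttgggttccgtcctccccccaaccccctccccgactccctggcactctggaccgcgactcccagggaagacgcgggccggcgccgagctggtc
Slc15a2: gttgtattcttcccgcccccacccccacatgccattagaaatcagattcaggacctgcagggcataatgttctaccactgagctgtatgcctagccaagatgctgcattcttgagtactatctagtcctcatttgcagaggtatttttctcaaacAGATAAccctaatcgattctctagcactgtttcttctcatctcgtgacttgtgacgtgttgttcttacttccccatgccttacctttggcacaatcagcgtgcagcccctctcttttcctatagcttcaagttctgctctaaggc
Map2k6: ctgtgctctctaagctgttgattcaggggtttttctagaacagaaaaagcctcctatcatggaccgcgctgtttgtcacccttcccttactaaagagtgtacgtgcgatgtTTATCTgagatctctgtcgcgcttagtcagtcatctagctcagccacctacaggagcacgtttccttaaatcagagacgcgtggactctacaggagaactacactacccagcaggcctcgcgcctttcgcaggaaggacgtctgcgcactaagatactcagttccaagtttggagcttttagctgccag
Lrtm1: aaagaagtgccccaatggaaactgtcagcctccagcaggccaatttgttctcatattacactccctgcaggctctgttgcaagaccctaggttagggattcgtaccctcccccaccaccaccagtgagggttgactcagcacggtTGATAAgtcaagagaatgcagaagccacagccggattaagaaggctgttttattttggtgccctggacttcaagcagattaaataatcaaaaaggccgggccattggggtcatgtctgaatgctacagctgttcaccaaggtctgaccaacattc
Counted in bases from the start of the gene, the motif begins at -238 in *Lad1*, -95 in *Slc15a2*, -139 in *Map2k6* and -105 in *Lrtm1*. Of these genes *Map2k6* was higher in the deleted hearts and the other 3 were lower. The match is a description of the letters in these windows, and binding was not measured.

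Among the genes that were higher, *Myh7* had the largest difference of the 10. It encodes the β-myosin heavy chain, the fetal and slow isoform that mouse ventricles express at low levels after birth. It read 10.82, 11.22 and 11.95 in the deleted hearts, against 9.22, 9.62 and 10.24 as the lowest, median and highest control. Every deleted heart was above every control, the third the farthest, and the log2 change was 1.60 (SE 0.28), a 3.04-fold difference. The 2 cre hearts, which carry the transgene as well, read 10.14 and 9.22. *Myh6*, the α-myosin heavy chain of the adult mouse heart, was chosen after its values were seen and read 13.16, 13.14 and 13.13 in the deleted hearts, against 13.13 to 13.26 in the controls, with overlap and a log2 change of -0.04 (SE 0.05, limma adjusted p = 0.929).

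*Lrrcc1*, which encodes a coiled-coil protein of the centriole, had the smallest p. Its signals were 7.40, 7.56 and 7.65 in the deleted hearts, against 6.11, 6.41 and 6.74 as the lowest, median and highest control, a log2 change of 1.15 (SE 0.13). The gap between the groups, 0.66, was wider than the whole spread of the controls. *Fgl2*, fibrinogen-like protein 2, a prothrombinase and secreted immune regulator, read 9.47, 9.67 and 9.53 in the deleted hearts, against 8.10, 8.47 and 8.96 in the controls, a log2 change of 1.07 (SE 0.19). Its deleted hearts lay close together and above every control, and its highest controls were a *Gata6* floxed heart at 8.96 and a cre heart at 8.74.

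2 of the higher genes take part in signalling by receptors and kinases. *Drd2*, the D2 dopamine receptor, which lowers cyclic AMP through inhibitory G proteins, read 6.08, 5.92 and 6.27 in the deleted hearts, against 5.32, 5.48 and 5.54 in the controls, a log2 change of 0.63 (SE 0.08). *Map2k6*, the kinase that activates p38 MAP kinase and whose promoter is printed above, read 7.26, 7.54 and 7.58 in the deleted hearts, against 6.86, 6.93 and 7.07 in the controls, a log2 change of 0.51 (SE 0.08). Neither gene's groups overlap, and every control of *Drd2* lay below the array medians. *Slit2*, a secreted ligand of the Robo receptors that guide cells and vessels, read 6.54, 6.71 and 6.37 in the deleted hearts, against 5.85, 6.08 and 6.15 in the controls, a log2 change of 0.49 (SE 0.09) with no overlap.

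The remaining higher genes act in transcription. *Ier5* and *Nr4a3* belong to the immediate early genes, which respond within a short time to a stimulus without new protein synthesis. *Ier5* read 7.69, 7.64 and 7.63 in the deleted hearts, against 6.66, 6.89 and 7.18 in the controls, a log2 change of 0.74 (SE 0.13). *Nr4a3*, an orphan nuclear receptor, read 6.11, 5.42 and 5.98 in the deleted hearts, against 4.77, 5.04 and 5.26 in the controls, a log2 change of 0.81 (SE 0.15). Both were above every control in all deleted hearts, *Ier5* with little spread and *Nr4a3* with the second heart close to the controls. For *Nr4a3* that heart and every control lay below the array medians. *Mkx*, a homeobox factor of tendon, read 5.43, 5.41 and 5.46 in the deleted hearts, against 4.57, 4.89 and 4.98 in the controls, a log2 change of 0.61 (SE 0.10). *Eya1*, a phosphatase and transcriptional coactivator, read 5.31, 5.11 and 5.24 in the deleted hearts, against 4.60, 4.75 and 4.81 in the controls, a log2 change of 0.50 (SE 0.07). The groups of these genes do not overlap either, and both lie below the array medians.

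**Figure D2:**
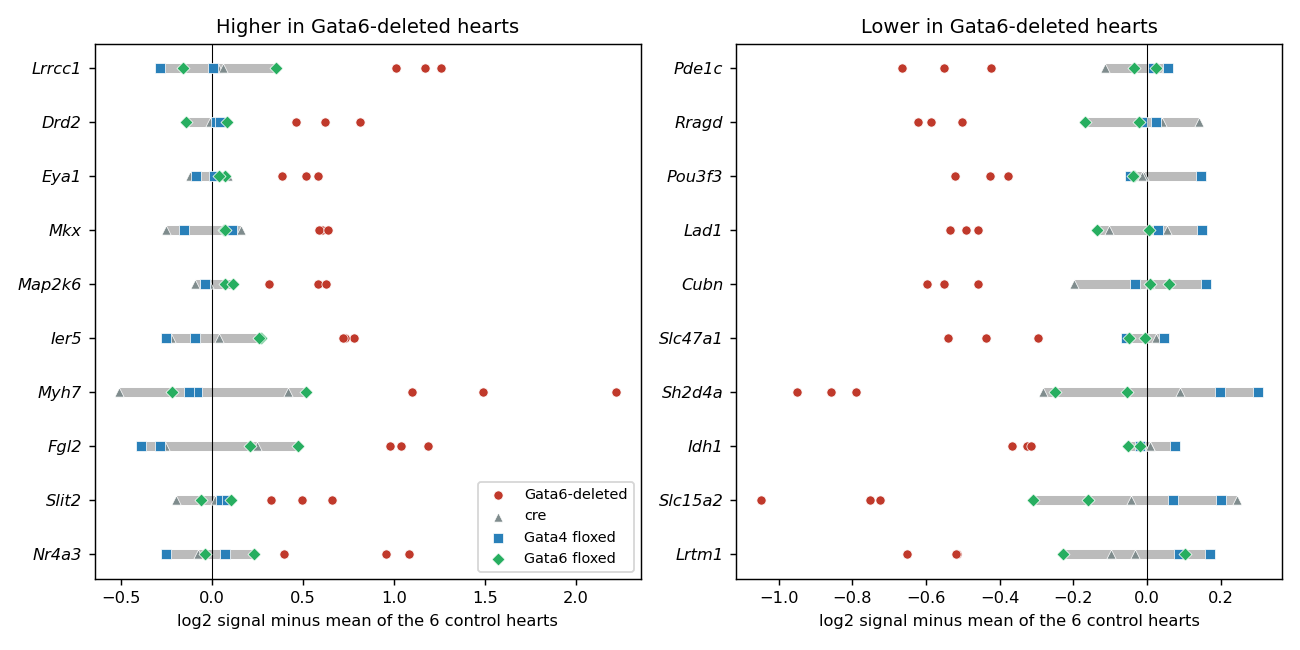
Log2 signal of each heart minus the mean of the 6 controls (x axis) for the 20 genes of smallest p (y axis), with 1 point per heart, coloured by genotype, and a grey bar over the control range. All red points lie outside the grey bar, for *Myh7* from 10.82 to 11.95 against a highest control of 10.24, and for *Slc15a2* at 5.003 or below against a lowest control of 5.42.

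The 10 lower genes hold transporters, enzymes and membrane proteins. *Pde1c* encodes a phosphodiesterase that calcium and calmodulin activate and that breaks down cyclic AMP and cyclic GMP. It read 7.60, 7.36 and 7.48 in the deleted hearts, against 7.92, 8.05 and 8.09 as the lowest, median and highest control. All deleted hearts were below all controls, and the log2 change was -0.55 (SE 0.07).

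3 of the lower genes move solutes or vitamins across membranes. *Slc15a2*, a proton-coupled peptide transporter, read 5.003, 4.98 and 4.68 in the deleted hearts, against 5.42, 5.74 and 5.97 in the controls, a log2 change of -0.84 (SE 0.13). *Slc47a1*, an exporter of organic cations, read 8.44, 8.68 and 8.54 in the deleted hearts, against 8.92, 8.99 and 9.02 in the controls, a log2 change of -0.42 (SE 0.07). *Cubn*, the endocytic receptor for intrinsic factor with vitamin B12, read 4.71, 4.76 and 4.85 in the deleted hearts, against 5.11, 5.32 and 5.47 in the controls, a log2 change of -0.54 (SE 0.08). No deleted heart reached the lowest control in any of them, and the *Gata6* floxed hearts were the lowest controls for *Slc15a2*. *Cubn* lay below the array medians in every heart of both groups, and *Slc15a2* did in the deleted and the *Gata6* floxed hearts.

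*Idh1*, the cytosolic isocitrate dehydrogenase that makes NADPH, had the smallest change of the 20. It read 9.29, 9.30 and 9.25 in the deleted hearts, against 9.56, 9.61 and 9.69 in the controls, a log2 change of -0.34 (SE 0.05) without overlap. *Rragd*, a Rag GTPase that recruits mTORC1 to the lysosome, read 8.38, 8.35 and 8.47 in the deleted hearts, against 8.80, 8.97 and 9.11 in the controls, a log2 change of -0.57 (SE 0.07). *Sh2d4a*, an adaptor with an SH2 domain, read 6.24, 6.18 and 6.08 in the deleted hearts, against 6.75, 7.05 and 7.33 in the controls, a log2 change of -0.87 (SE 0.13). Both genes were lower in every deleted heart than in every control, and *Sh2d4a* had the largest difference of the 10 lower genes.

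*Lrtm1*, a membrane protein with leucine-rich repeats, was the brightest of the lower genes. It read 10.98, 11.11 and 11.11 in the deleted hearts, against 11.40, 11.65 and 11.80 in the controls, a log2 change of -0.56 (SE 0.09). *Lad1*, ladinin 1 of anchoring filaments, read 5.77, 5.73 and 5.69 in the deleted hearts, against 6.09, 6.24 and 6.37 in the controls, a log2 change of -0.50 (SE 0.07). *Pou3f3*, a POU-domain factor of brain and kidney, read 5.74, 5.69 and 5.60 in the deleted hearts, against 6.07, 6.09 and 6.27 in the controls, a log2 change of -0.44 (SE 0.06). The groups of all 3 genes are apart, by 0.29 in *Lrtm1*, by 0.32 in *Lad1* and by 0.33 in *Pou3f3*.

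The kinds of control heart were then taken one at a time, since pooling them puts their differences into the error. In a limma fit of 5 group means over 12 arrays, the deleted hearts differed from the cre hearts in 183 probesets (0.515%), 109 higher and 74 lower. They differed from the *Gata4* floxed hearts in 262 probesets (0.737%), 159 higher and 103 lower. Against the *Gata6* floxed hearts, which carry the same floxed allele, 0 probesets passed (0%), and the smallest limma adjusted p was 0.243. At an unadjusted p under 0.05, 849 probesets were higher and 896 lower. About 1778 in both directions together would be expected by chance at that threshold. Of the 109 and the 159 higher probesets, 50 are copies with identical values, and there were further copies among the rest. With all copies counted once, 54 and 104 distinct sets of values remained. Of the 20 genes, 2 passed against cre hearts, 5 against *Gata4* floxed hearts and 0 against *Gata6* floxed hearts, where the lowest limma adjusted p was 0.519. That difference between contrasts was not itself tested.

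The genes that passed against cre hearts were *Ier5* and *Fgl2*. *Ier5* differed by 0.84 from cre hearts (limma adjusted p = 0.00761), by 0.92 from *Gata4* floxed hearts (limma adjusted p = 0.00452) and by 0.48 from *Gata6* floxed hearts (limma adjusted p = 0.519). Among its controls the *Gata6* floxed hearts, at 7.18 and 7.17, lay nearest to the deleted hearts. In the same 5-group fit, the contrast of the deleted hearts with the average of the 3 kinds of control called 142 probesets, 94 higher and 48 lower, with 39 and 48 distinct sets of values, and 112 of the 142 lay outside the control range. Of the 20 genes 11 passed there, and *Ier5* had a limma adjusted p of 0.00663.

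**Figure D3:**
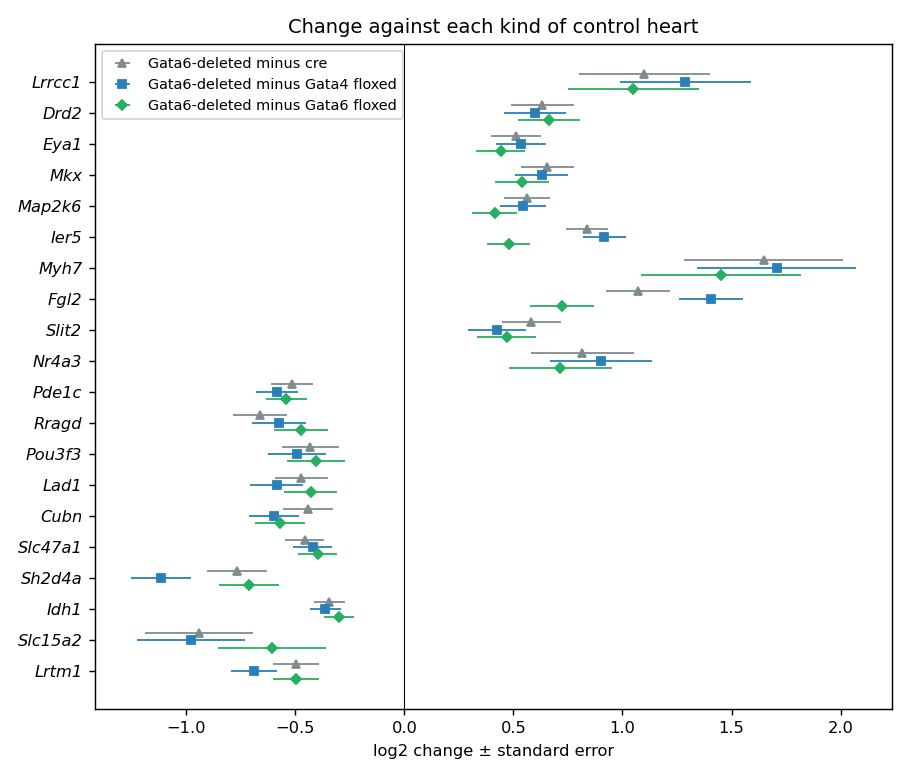
Log2 change of the 3 *Gata6*-deleted hearts against the 2 cre, the 2 *Gata4* floxed and the 2 *Gata6* floxed hearts (x axis, point with 1 standard error from the 5-group limma fit) for the 20 genes (y axis). The points of a gene lie on the same side of 0 because no groups overlap. For most of the 20 genes, among them *Ier5*, *Fgl2*, *Myh7* and *Slc15a2*, the change against *Gata6* floxed hearts was smaller than against either other kind of control. For *Drd2*, *Slit2*, *Pde1c*, *Cubn* and *Lrtm1* it was not.

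Some larger differences lay in genes whose *Gata6* floxed hearts were next to the deleted hearts. These genes were picked once the values had been seen. *Il15*, a cytokine needed by natural killer cells, read 5.77, 5.59 and 5.30 in the deleted hearts, against 5.91 and 5.94 in *Gata6* floxed hearts and 7.80 to 8.58 in the other controls. *Ifi202b*, an interferon-inducible DNA-binding protein, read 3.39, 3.35 and 3.49 in the deleted hearts, against 3.55 and 3.72 in *Gata6* floxed hearts and 4.72 to 4.78 in the other controls. Its signal in the deleted and *Gata6* floxed hearts was about as low as that of *Xist*, 3.41 to 3.88. *Cacna1g*, the T-type calcium channel of pacemaking cells, read 6.82, 6.85 and 6.52 in the deleted hearts, against 7.09 and 6.85 in *Gata6* floxed hearts and 7.80 to 7.93 in the other controls. All deleted hearts were outside the control range in these 3 genes, for *Cacna1g* by only 0.0017, and their pooled changes were -1.95 (SE 0.65, limma adjusted p = 0.612), -0.97 (SE 0.30, limma adjusted p = 0.589) and -0.83 (SE 0.25, limma adjusted p = 0.565). *Gata4* floxed minus *Gata6* floxed hearts, which differed in 0.228% of probesets, gave differences of 1.12 in *Ifi202b* (limma adjusted p = 0.00283), of 0.89 in *Cacna1g* (limma adjusted p = 0.032) and of 2.18 in *Il15* (limma adjusted p = 0.0503). For such genes the effect of the deletion and that of the mouse line cannot be told apart against cre or *Gata4* floxed hearts.

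By size, 6 genes above the control range had a log2 change of at least 1 and 2 genes below it one of at least as much in the other direction. Besides *Myh7*, *Lrrcc1*, *Fgl2*, *Nr4a1* and *Il15*, they were *Fam81a*, *Ndufs5* and *Kcnv2*, which lie outside the naming rule and were picked with their values known. *Fam81a* read 8.33, 8.25 and 8.88 in the deleted hearts, against 6.72, 7.05 and 7.94 in the controls, a log2 change of 1.27 (SE 0.26, limma adjusted p = 0.245). *Ndufs5*, an accessory subunit of respiratory complex I, read 10.18, 10.004 and 9.91 in the deleted hearts, against 7.98, 9.02 and 9.88 in the controls, a log2 change of 1.06 (SE 0.42, limma adjusted p = 0.693). *Kcnv2*, a silent subunit that modifies potassium channels, read 5.60, 5.56 and 5.11 in the deleted hearts, against 5.86, 6.49 and 7.05 in the controls, a log2 change of -1.04 (SE 0.28, limma adjusted p = 0.486). In all 3 genes the control nearest to the deleted hearts was a *Gata6* floxed heart, at 7.94 for *Fam81a*, 9.88 for *Ndufs5* and 5.86 for *Kcnv2*. The controls of all 3 genes spread more widely than the gap between the groups.

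The largest difference of all belonged to the 50 copies, which have no gene in the probe table. They read 7.87, 9.82 and 10.36 in the deleted hearts, against 4.42 and 5.10 in cre hearts, 5.69 and 5.83 in *Gata4* floxed hearts and 6.64 and 7.16 in *Gata6* floxed hearts. The deleted hearts were above every control, and the pooled log2 change was 3.54 (SE 0.67, limma adjusted p = 0.178). The 4 groups stand in an order, with cre hearts lowest, then *Gata4* floxed, *Gata6* floxed and deleted hearts.

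Gene lists of pathways and cell types follow, each described by how many of its measured members had all deleted hearts above or below the control range and by its median log2 change. Lists and members were chosen with earlier results of these data known. A list's share beside that of all genes is therefore a description and not independent evidence. Over all 19938 genes 3.92% lay outside the range, 9631 (48.3%) had a positive change, and the median change was -0.00. No member of any list passed limma over all probesets with the controls pooled, so the members are given as values. Of the members, *Drd2* and *Pde1c* passed where probesets were averaged per gene, and 8 passed against the average of the 3 kinds of control in the fit of 5 group means, namely *Ier5*, *Ier3*, *Cacna1g*, *Pde1c*, *Bak1*, *Hspb1*, *Mkx* and *Fstl4* (limma adjusted p between 0.00663 and 0.0286). The fit of 5 group means leaves the differences between kinds of control out of the error. None of these genes passed against *Gata6* floxed hearts alone, where 0 probesets passed. Of the 34 list medians, 21 had the other sign against at least 1 kind of control, and 13 kept the sign against all 3 kinds. In whole-heart RNA, fewer cells of a type and less RNA per cell cannot be told apart.

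Immediate early genes encode transcription factors and feedback regulators that cells transcribe first after a stimulus. Of 23 genes measured, 20 had a positive change, 6 lay above the control range and 0 below it (26.1%, against 3.92% of all genes), and the median log2 change was 0.20. Their mean signal was 6.75 to 7.04 in the deleted hearts, against 6.46 to 6.68 in the controls. The 6 genes were *Ier5* and *Nr4a3* and, chosen after their values were seen, *Nr4a1*, *Atf3*, *Ier3* and *Jun*. *Nr4a1*, the orphan nuclear receptor NUR77, read 8.98, 7.81 and 8.67 in the deleted hearts, against 6.76, 7.35 and 7.61 in the controls, a log2 change of 1.22 (SE 0.26, limma adjusted p = 0.3). *Atf3*, a stress-induced bZIP factor, read 7.09, 6.39 and 6.72 in the deleted hearts, against 5.84, 6.19 and 6.33 in the controls, a log2 change of 0.58 (SE 0.15, limma adjusted p = 0.456). The second deleted heart was the lowest of the 3 in both and the first the highest. *Jun*, a subunit of the AP-1 factor, differed by 0.44 and *Ier3*, an inhibitor of cell death, by 0.47, both without overlap. The partner of *Jun* in AP-1, *Fos*, read 6.62, 5.94 and 5.92 in the deleted hearts, against 5.66, 5.80 and 6.07 in the controls, and *Egr1* 6.69, 6.08 and 5.79, against 5.40, 6.31 and 6.67, so both overlap.

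Some genes of the fetal ventricle are expressed again when the adult heart is stressed, and 14 of them formed a list. Of these, 11 had a positive change, 3 lay above the control range (*Myh7*, *Nppb* and *Acta1*) and 0 below it (21.4%), with a median of 0.24. The list mean was 9.97 to 10.08 in the deleted hearts, against 9.56 to 9.87 in the controls. The median depended on the control, at 0.40 against cre, 0.28 against *Gata4* floxed and 0.02 against *Gata6* floxed hearts. *Nppb*, the B-type natriuretic peptide and a gene the study chose on these arrays, read 10.13, 10.22 and 10.39 in the deleted hearts, against 9.12, 9.77 and 9.95 in the controls, a log2 change of 0.56 (SE 0.18, limma adjusted p = 0.589). *Acta1*, skeletal α-actin, read 12.26, 12.34 and 12.12 in the deleted hearts, against 11.46, 11.72 and 12.10 in the controls, a log2 change of 0.50 (SE 0.14, limma adjusted p = 0.553). *Nppb* was clear of its controls by 0.18 while *Acta1* was clear by 0.026, with a *Gata4* floxed heart as its highest control. *Nppa*, the atrial peptide, overlapped, with 11.64, 11.94 and 12.17 in the deleted hearts, against 11.12 to 12.23 in the controls.

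In the sarcomere and Z-disc list 4 of 30 genes lay above the control range and 2 below it (20%), with a median of 0.02. *Tpm2*, β-tropomyosin, read 6.70, 6.88 and 6.64 in the deleted hearts, against 6.14, 6.38 and 6.56 in the controls, a log2 change of 0.36 (SE 0.10, limma adjusted p = 0.474). *Tnnt1*, the slow skeletal troponin T, differed by 0.39 (SE 0.11) without overlap. The other members outside the range had smaller differences, 0.09 in *Actn2* and 0.08 in *Tpm1*, both above it, and -0.19 in *Nebl* and -0.08 in *Smpx*, both below it. *Tnnt2*, the cardiac troponin T, read 13.06, 13.07 and 12.99 in the deleted hearts, against 13.06 to 13.27 in the controls, and overlapped.

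Chaperones and genes of endoplasmic reticulum stress had 14 of 19 positive changes, with 3 genes above the control range (15.8%), 0 below it and a median of 0.06. The list mean was 8.64 to 8.74 in the deleted hearts, against 8.51 to 8.63 in the controls. *Hspb1*, the small heat shock protein HSP27, read 9.82, 9.93 and 10.02 in the deleted hearts, against 9.24, 9.44 and 9.67 in the controls, a log2 change of 0.47 (SE 0.11, limma adjusted p = 0.373, and 0.0203 with 5 group means), and its second probeset differed by 0.46 without overlap. *Hsp90aa1*, the inducible HSP90, differed by 0.34 and *Hspa1a*, an inducible HSP70, by 0.32, clear of the controls by 0.023 and 0.0046. A *Gata6* floxed heart was the highest control of *Hspb1*, *Hsp90aa1* and *Hspa1a*. Against *Gata6* floxed hearts alone *Hspb1* differed by 0.26 (limma adjusted p = 0.933).

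Calcium handling genes set the size and duration of the calcium transient. Of 21 genes measured, 4 lay below the control range (19.0%, against 3.92% of all genes) and 0 above it, and the median was -0.03. The 4 genes were *Pde1c*, *Cacna1g* and, chosen after their values were seen, *Cacna1c* and *Pde3a*. *Cacna1g* was below the range by only 0.0017, with the *Gata6* floxed hearts next to the deleted hearts. *Cacna1c*, the pore subunit of the L-type calcium channel, read 9.82, 9.75 and 9.86 in the deleted hearts, against 10.02, 10.12 and 10.28 in the controls, a log2 change of -0.32 (SE 0.08, limma adjusted p = 0.404). *Pde3a*, a phosphodiesterase of cyclic AMP, read 9.08, 8.91 and 9.09 in the deleted hearts, against 9.19, 9.34 and 9.48 in the controls, a log2 change of -0.30 (SE 0.08, limma adjusted p = 0.474). Both were lower in every deleted heart than in every control. Among 16 ion channel genes 2 were below the range (12.5%), 0 above it and 5 had a positive change. *Kcnj3*, a subunit of the potassium channel that acetylcholine opens, read 7.55, 7.82 and 7.61 in the deleted hearts, against 7.90, 8.11 and 8.22 in the controls, a log2 change of -0.43 (SE 0.09, limma adjusted p = 0.223). *Kcnd2*, which carries transient outward current, differed by -0.41 (SE 0.12), with a gap of only 0.0036 between its highest deleted heart and its lowest control.

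**Figure D4:**
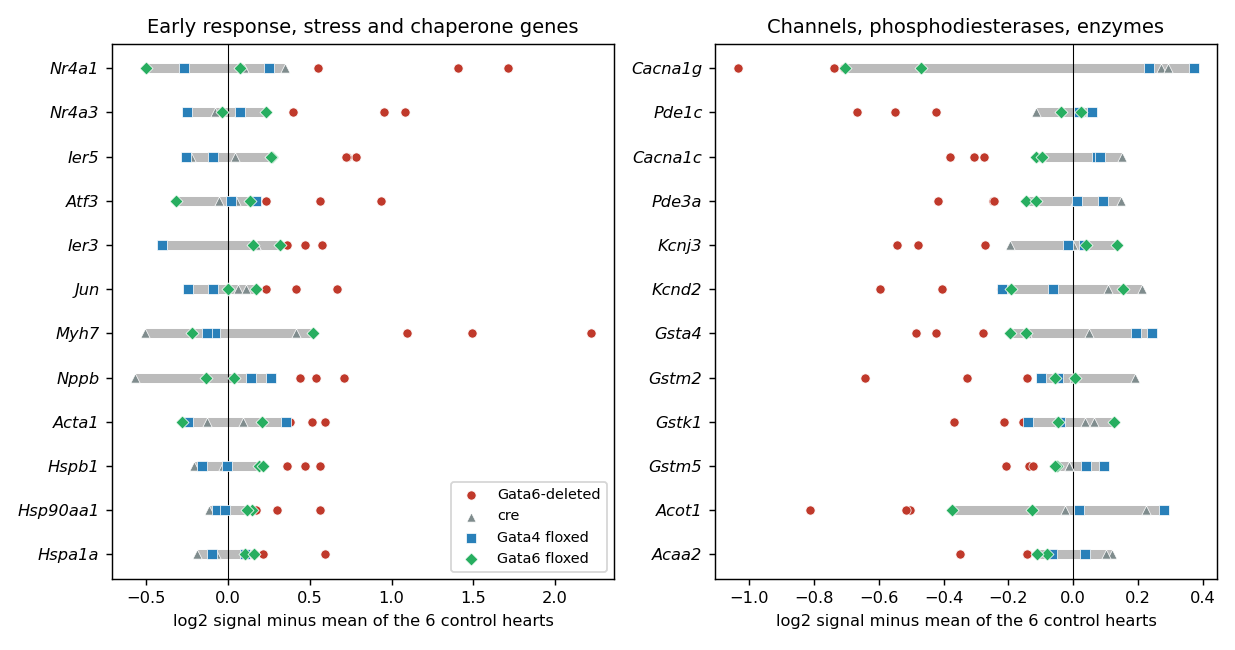
Log2 signal of each heart minus the mean of the 6 controls (x axis) for members of the lists that lay outside the control range (y axis), 1 point per heart, with a grey bar over the control range. *Nr4a1* stands farthest above among the early genes, at 7.81 to 8.98 against a highest control of 7.61, and for *Cacna1g* the *Gata6* floxed hearts lie next to the deleted hearts.

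Among 25 GATA factors and cardiac partner factors 8 had a positive change, 2 lay below the range (8.0%) and 0 above it. *Hey2*, a Notch effector of ventricular muscle and a gene the study chose on these arrays, read 5.56, 5.57 and 5.42 in the deleted hearts, against 5.84, 6.03 and 6.41 in the controls, a log2 change of -0.58 (SE 0.13, limma adjusted p = 0.373). *Irx1*, an Iroquois factor, differed by -0.18 (SE 0.09), likewise without overlap. The lowest *Hey2* controls were the *Gata6* floxed hearts at 5.92 and 5.84. The study's qRT-PCR gave *Hey2* above the *Gata6* floxed level in *Gata6*-deleted hearts, the direction opposite to the arrays.

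Angiogenic factors are of interest because the study compared both deletions for vessel growth under load. Here 15 of 30 such genes had a positive change, 2 lay below the range (6.67%) and 0 above it, and the median was -0.01. *Fgf16*, a growth factor that cardiomyocytes secrete, read 6.89, 7.09 and 7.04 in the deleted hearts, against 7.26, 7.31 and 7.42 in the controls, a log2 change of -0.32 (SE 0.07, limma adjusted p = 0.251). *Vegfa*, which drives the growth of new vessels, read 9.62, 9.64 and 9.58 in the deleted hearts, against 9.54, 9.63 and 9.73 in the controls, a log2 change of -0.01 (SE 0.06, limma adjusted p = 0.981). *Fgf16* was lower in every deleted heart than in any control, while for *Vegfa* the deleted hearts lay inside the control range. *Pgf*, placental growth factor, differed by -0.21 (SE 0.12) with a gap of 0.0032 to the lowest control. Of the 24 genes that the study followed up by qRT-PCR in its table of vessel genes, *Nppb* lay above the range and *Fgf16* below it (8.33%, against 3.92% of all genes). The study's qRT-PCR gave both genes above the *Gata6* floxed level in *Gata6*-deleted hearts, for *Fgf16* the direction opposite to the arrays. Its text counted *Fgf16* as not changed by this deletion.

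Detoxification genes had 7 of 23 positive changes, with 4 below the range (17.4%), 0 above it and a median of -0.06. All 4 encode glutathione transferases. *Gsta4*, which conjugates lipid aldehydes, read 9.31, 9.45 and 9.25 in the deleted hearts, against 9.54, 9.68 and 9.98 in the controls, a log2 change of -0.40 (SE 0.11, limma adjusted p = 0.54). *Gstm2* differed by -0.37, *Gstk1* by -0.25 and *Gstm5* by -0.16, each without overlap. Fatty acid oxidation had 5 of 22 positive changes and 2 genes below the range (9.09%), and its median of -0.08 was 0.01 against *Gata6* floxed hearts alone. *Acot1*, a cytosolic acyl-CoA thioesterase, read 6.20, 6.19 and 5.89 in the deleted hearts, against 6.33, 6.70 and 6.98 in the controls, a log2 change of -0.61 (SE 0.14, limma adjusted p = 0.381), and *Acaa2*, the mitochondrial thiolase, differed by -0.21 (SE 0.08). Both were lower in each deleted heart than in any control. Of the 27 respiratory chain subunits in the list, which does not hold *Ndufs5*, and of 21 genes of glucose and glycogen use, 0 lay outside the range, and the changes of their members of smallest p, *Ndufa1* of complex I and *Gbe1*, the glycogen branching enzyme, were -0.10 and -0.20.

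Single members stood outside the range in several other lists, against 3.92% of all genes. The shares were 8.0% in the cell cycle list, 5.0% in cell survival and 5.56% in the clock list. They were 6.25% in the list of TIMPs and matrix proteases and 8.33% in that of adrenergic and dopamine receptors. Each of these shares rests on 1 or 2 genes. *Ccnd2*, cyclin D2, read 10.36 in each deleted heart, against 9.75, 9.95 and 10.21 in the controls, a log2 change of 0.41 (SE 0.11, limma adjusted p = 0.45), 1 of 2 such genes of 25 in the cell cycle list. *Bak1*, a pore-forming effector of apoptosis, read 7.14, 7.06 and 6.97 in the deleted hearts, against 6.46, 6.67 and 6.90 in the controls, a log2 change of 0.40 (SE 0.10, limma adjusted p = 0.452, and 0.0171 with 5 group means), the only such gene of 20 in the cell survival list. Both were higher in all deleted hearts than in any control. Against *Gata6* floxed hearts alone *Bak1* differed by 0.21 (limma adjusted p = 0.941). *Clock*, a core circadian factor, differed by -0.15 (SE 0.08) below the range, *Sgk1*, a kinase that glucocorticoids induce, by 0.19 (SE 0.09) with overlap, and *Adamts3*, a procollagen protease, by -0.26 (SE 0.09) below it. *Adamts3* has 16 probesets, and of the other 15 only 4 lay outside the range while 11 overlapped it. Of 12 adrenergic and dopamine receptors *Drd2* was the only one outside the range. In the list of interferon and antigen presentation 0 of 22 genes were outside it, and *Tap1*, the peptide transporter of antigen presentation, differed by -0.38 (SE 0.14) with overlap. *Gpr22*, an orphan receptor of the heart in the atrial-type list, differed by -0.49 (SE 0.12) and *Thbs4*, a matrix protein of stressed muscle, by 0.34 (SE 0.12), both with overlap.

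Markers of the other cell types in a heart were measured in the same way. Of 18 endothelial, 20 macrophage, 12 lymphocyte, 4 red cell, 13 fat cell and 8 Schwann cell markers, 0 lay outside the control range. Of 16 smooth muscle and pericyte markers 14 had a positive change, and *Cspg4* alone was above the range (6.25%, against 3.92% of all genes). The list mean was 8.48 to 8.68 in the deleted hearts, against 8.33 to 8.48 in the controls. *Acta2*, smooth muscle actin, differed by 0.77 (SE 0.21, limma adjusted p = 0.495), with 11.54, 11.29 and 10.85 in the deleted hearts, against 10.16, 10.39 and 10.92 in the controls, so that the third deleted heart overlapped. Of 24 genes of fibroblasts and matrix 19 had a positive change and 0 were outside the range, with a median of 0.15. Against *Gata4* floxed hearts alone 8 of the 24 were positive and the median was -0.03, while the medians against cre and *Gata6* floxed hearts were 0.25 and 0.18. The cartilage and valve list had 1 of 12 genes outside the range (*Mkx*, 8.33%), with a mean of 5.81 to 5.89 in the deleted hearts, against 5.64 to 5.71 in the controls. Of 13 skeletal muscle markers *Acta1* alone was outside the range (7.69%). Of 10 epicardial markers *Krt19* alone was (10%), a keratin that differed by -0.11 (SE 0.07). *Tie1* of endothelium differed by 0.19, *Fcgr3* of macrophages by 0.24, *Cd79b* of B cells by 0.39, *Alas2* of red cells by -0.41, *Cidea* of fat by 0.22 and *Pmp22* of Schwann cells by 0.31, all with overlap. The part of such cell types in the other differences was not tested.

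**Figure D5:**
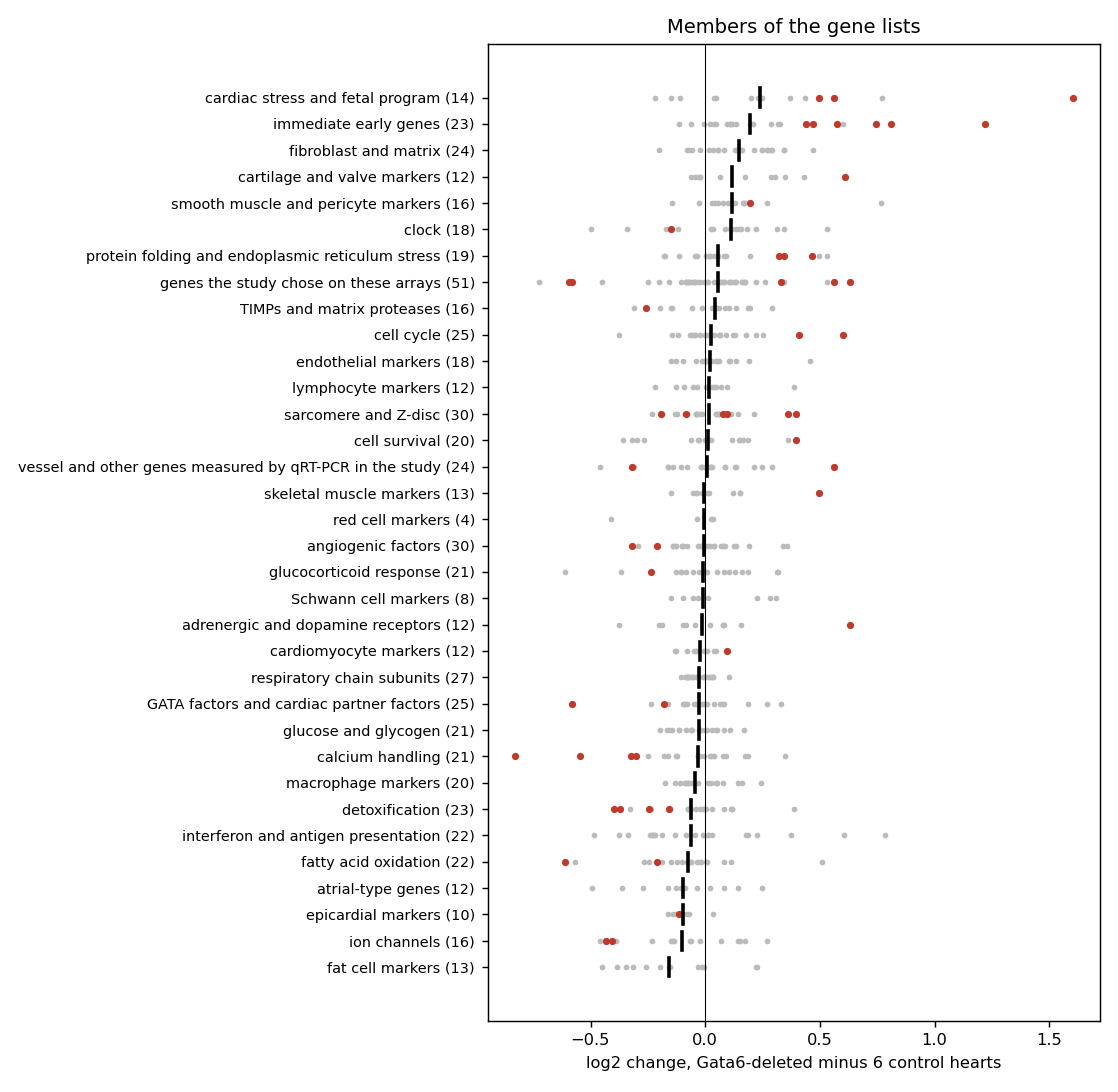
Log2 change of every measured member (points) of the 34 gene lists (y axis, number of measured genes in brackets), with the list median as a black bar and members outside the control range in red. The lists of cardiac stress and of immediate early genes have the highest medians, 0.24 and 0.20, and the fat cell markers the lowest, -0.16.

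The study had chosen a set of genes on these arrays, for the difference between both deletions. Of 51 measured here, 3 lay above the control range (*Drd2*, *Nppb* and *Sync*) and 2 below it (*Hey2* and *Fstl4*), together 9.80% against 3.92% of all genes. Since they were picked from these same arrays, they are not independent evidence of a direction. The study's qRT-PCR gave *Drd2* and *Nppb* above and *Fstl4* below the *Gata6* floxed level in *Gata6*-deleted hearts, the direction of the arrays. For *Hey2* it gave the opposite direction. *Sync*, an intermediate filament partner of muscle chosen after its values were seen, read 8.53, 8.55 and 8.56 in the deleted hearts, against 8.10, 8.19 and 8.34 in the controls, a log2 change of 0.33 (SE 0.07, limma adjusted p = 0.216). Its deleted hearts lay close together, with a gap of 0.19 to the highest control. Set directly against the 3 *Gata4*-deleted hearts, the *Gata6*-deleted hearts differed in 133 probesets (0.374%), 93 higher and 40 lower, of which 50 higher ones are the copies. Of the genes named by rule, *Drd2*, *Pde1c*, *Slc15a2*, *Fgf16* and *Cidea* passed that test. *Myh7* read 10.82, 11.22 and 11.95 in *Gata6*-deleted hearts, against 12.18, 12.50 and 12.68 in *Gata4*-deleted hearts, a log2 difference of -1.13 (SE 0.30, limma adjusted p = 0.206) that did not pass, although no heart of one deletion reached the range of the other.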

How the data were processed

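Hearts of 9 mice were compared, 3 *Gata6*-deleted, 2 cre, 2 *Gata4* floxed and 2 *Gata6* floxed, with 1 Affymetrix mouse gene ST array per mouse. Samples were grouped by the genotype in the labels. The deposited values are log2 signals that the authors made by RMA (background correction, normalization between arrays, summary per probeset), according to the submitters' processing notes, whose version is not given in the sources used here. They were used as deposited, with no filter. Another deposited table, of ratios relative to a baseline, has 12 columns whose names match no sample's labels and was not used here. Values in the deposited table ran from 1.40 to 14.05. Precision is limited by the number of arrays, and an exact test of 3 against 6 hearts on 1 probeset cannot give a p below 0.0238.

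Gene symbols came from the platform's probe table, in which 21789 of 35557 probesets had 1 symbol (19938 genes), 1621 had several and 12147 were not listed. Where several probesets measure a gene, the brightest on average stands for it. Both groups were fitted with limma 3.58.1 (R 4.3.3), giving 7 residual and 2.41 prior degrees of freedom. Two-sided p-values were adjusted over all probesets by the method of Benjamini and Hochberg, with 0.05 as the threshold. Each kind of control was compared in a fit with 5 group means over 12 arrays, and the *Gata4*-deleted hearts in a fit with 3 groups. The script was checked on simulated data with known changes. The replicates are labelled as biological and were taken as separate mice.

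Genes were named by a rule that took genes passing the test with no overlap, filled up to 10 in each direction by the smallest p, with *Gata6*, *Gata4* and, in each of 34 lists (654 of 707 members matched), the member of smallest p where none passed. Other genes were chosen with their values known. The members and lists were chosen with earlier results of these data known. Promoter windows came from RefSeq (GRCm38.p6), and each was searched for AGATAA and TGATAA on both strands. Alternatives were other normalizations, filters, fits, thresholds and controls, the methods' t-test, the replicate number and the mouse line as blocks, and leaving out each array. The count of probesets outside the control range at any p was added after seeing that no probeset passed.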

Additional observations from a re-analysis of the deposited data

Results flagged for a closer look

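In 4 of 49 genes named by rule, 1 control heart lay far from the other 5 (by Dixon's test, which flags about 1 in 20 groups by chance). *Pou3f3* read 6.27 in *Gata4* floxed heart 2, against a next highest control of 6.11, and the deleted hearts lay below both. *Sgk1* read 6.96 in *Gata4* floxed heart 1, against a next lowest control of 7.18. *Gbe1* read 9.24 in *Gata6* floxed heart 2, against a next lowest control of 9.35, and 2 of the 3 deleted hearts lay below it. *Alas2*, a gene of red cells, read 8.59 in *Gata4* floxed heart 2, against a next highest control of 7.39.

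In 5 of these genes the *Gata6*-deleted hearts differed from the *Gata4*-deleted hearts (n = 3 each, limma with 3 groups over 12 arrays, Benjamini-Hochberg adjusted p over all probesets, 0.374% of which passed). *Drd2* read 6.08, 5.92 and 6.27 in *Gata6*-deleted hearts, against 4.96, 5.29 and 5.41 in *Gata4*-deleted hearts, a log2 difference of 0.87 (SE 0.12, adjusted p = 0.0204), with the *Gata6*-deleted hearts above every control. *Pde1c* read 7.60, 7.36 and 7.48 in *Gata6*-deleted hearts, against 6.85, 6.92 and 7.04 in *Gata4*-deleted hearts, a log2 difference of 0.55 (SE 0.08, adjusted p = 0.0381). In both deletions it lay below the controls, which read at least 7.92. *Slc15a2* read 5.003, 4.98 and 4.68 in *Gata6*-deleted hearts, against 5.76, 6.68 and 6.63 in *Gata4*-deleted hearts, a log2 difference of -1.47 (SE 0.22, adjusted p = 0.0426). *Fgf16* averaged 7.01 in *Gata6*-deleted hearts and 6.18 in *Gata4*-deleted hearts, a log2 difference of 0.83 (SE 0.13, adjusted p = 0.0426), below the lowest control of 7.26 in all 6 deleted hearts. *Cidea* averaged 7.91 in *Gata6*-deleted hearts and 7.21 in *Gata4*-deleted hearts, a log2 difference of 0.70 (SE 0.12, adjusted p = 0.0455), while the *Gata6*-deleted hearts overlapped the controls.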

How the results depend on the processing

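With limma on the values as deposited, 0 probesets were called higher and 0 lower. The counts were also 0 with median centring, quantile normalization, a dim-probeset filter, a trend and robust prior, the mouse line as a random block (consensus correlation 0.0929), thresholds of 0.1 and 0.01, an added minimum change of 0.5 and *Gata6* floxed hearts as the only control. The replicate numbers did not pair the hearts (correlations of same-numbered deviations from -0.03 to 0.11, 1 of 12 over 0.1), and with the replicate number as a block 0 probesets were called.

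Counts called higher, lower and outside the control range moved to 3, 7 and 10 with probesets averaged per gene, where fewer features were tested, to 61, 11 and 72 with 3 groups over 12 arrays (12 distinct sets of values among the 61), to 94, 48 and 112 with 5 group means, to 109, 74 and 97 with cre hearts only and to 159, 103 and 118 with *Gata4* floxed hearts only. They were 36, 24 and 60 without the *Gata6* floxed hearts as controls, 1163, 1237 and 1000 at an unadjusted p under 0.05, 1129, 1227 and 1110 by the methods' t-test unadjusted, and 1, 0 and 1 by that test adjusted. Leaving out each heart in turn gave 0 to 2 higher, 0 to 0 lower and 0 to 2 outside, the 2 being *Lrrcc1* and *Asns* without *Gata6* floxed heart 1. The cause of these differences was not tested.

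Of the 1238 probesets outside the control range at any p, 813 were counted with the dim filter, and 781 were counted per gene. The count was 2288 without cre hearts, 4242 without *Gata6* floxed hearts and 2340 without *Gata4* floxed hearts, where fewer samples bound the range, and 1555 to 3130 without single hearts (1936 and 2321 without *Gata6* floxed hearts 1 and 2, 3130, 2825 and 2596 without deleted hearts 1, 2 and 3).

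Of 1463 values of named genes under the alternatives, 1455 kept their sign. The exceptions were all of *Gata4*, near 0 throughout, at 0.0671 against cre hearts, 0.0502 against *Gata6* floxed hearts, 0.0587 without *Gata4* floxed hearts and 0.00637 with the line block, and from -0.0329 to 0.0298 without single hearts. Changes of sign without single hearts were looked for only in list medians at least 0.05 from 0. Among these, the only one to change sign was that of the genes the study chose on these arrays, 0.056, at lowest -0.015 without deleted heart 2. Medians nearer 0 were left out of that check. Against single kinds of control, 21 of 34 list medians had the other sign, a comparison chosen after seeing the data.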
